A study of Mus musculus with 12 samples.

Results

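The 10 genes described here are core genes of the circadian clock and of its transcriptional output, namely Arntl, Clock, Per1, Per2, Per3, Ciart, Nr1d1, Nr1d2, Dbp and Tef. They were taken as a fixed list and matched by symbol to the Ensembl identifiers of the mouse count tables. All 10 are among the 25442 genes that occur in both tables, and all 10 passed the filter on low counts in every comparison. RNA was sequenced from hippocampal cells of male C57Bl6/J mice that received an adeno-associated virus (AAV) in both CA1 areas at 2 months of age and were studied 2 months later. In every group the virus carried the GfaABC1D promoter, which is active mainly in astrocytes. It drove the murine adenosine A2A receptor (A2AR) in AAV-A2A animals and GFP in AAV-GFP controls. Cells were sorted with magnetic beads into an ACSA-2 fraction (astrocytes) and a CD11b fraction (microglia), the latter from the cells that the ACSA-2 column let through. There were 12 libraries, 3 for each vector in each fraction: GFP-303, GFP-306, GFP-307, A2A-309, A2A-310 and A2A-313 for ACSA-2, and GFP-2328, GFP-2329, GFP-2331, A2A-2343, A2A-2344 and A2A-2347 for CD11b. The hour at which the animals were killed is not given in the sources used here, so time of day cannot be told apart from vector or from fraction.

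In the mammalian clock, ARNTL (also named BMAL1) and CLOCK form a dimer that binds E-box sequences and activates the genes of its own repressors, the PER and CRY proteins. These accumulate, block the dimer and are then degraded, which closes a loop of about a day. In a second loop the nuclear receptors NR1D1 and NR1D2 (REV-ERB alpha and beta) repress Arntl through ROR elements (RORE), and the proline and acidic amino acid-rich (PAR) bZIP factors DBP and TEF carry the rhythm to other genes through D-boxes. Glial cells of the hippocampus hold this clock, and the level of most of its transcripts depends on the time of day.

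Because the members are tied to each other by these elements, their promoters were searched for them in RefSeq windows of 300 bases (250 before and 50 after an annotated start, GRCm38.p6), on both strands. Of the 10 genes, 9 had a window and 6 held at least 1 of the motifs. The E-box CACGTG occurred in 4 of the members' 14 windows (3 members) against 7.15% of all 32851 windows. Of the same 14 windows, 1 held the D-box TTANGTAA against 2.32% of all windows. The E-box variant CACGTT was in 1 of the 14 against 4.68%, and the RORE consensus in 1 against 0.384%. The cAMP element TGACGTCA, held by 1.79% of all windows, was in none of the members' windows. The 4 windows below show the motifs of Per1, Per3, Ciart and Arntl, with the matched letters in capitals and all else in lower case, 5′ to 3′ on the gene's strand.

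The window of Per1 (chr11:69098699-69098998, plus strand) held 1 E-box whose first base lay at -166 from the start.
Per1: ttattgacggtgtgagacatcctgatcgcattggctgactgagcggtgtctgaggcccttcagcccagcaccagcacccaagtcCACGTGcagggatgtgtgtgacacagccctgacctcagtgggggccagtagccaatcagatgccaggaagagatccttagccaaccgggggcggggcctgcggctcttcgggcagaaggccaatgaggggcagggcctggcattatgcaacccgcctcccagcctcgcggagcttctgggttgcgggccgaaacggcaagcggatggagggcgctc

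The window of Ciart (chr3:95882179-95882478, minus strand) held 3 E-boxes, at -116, -58 and -44.
Ciart: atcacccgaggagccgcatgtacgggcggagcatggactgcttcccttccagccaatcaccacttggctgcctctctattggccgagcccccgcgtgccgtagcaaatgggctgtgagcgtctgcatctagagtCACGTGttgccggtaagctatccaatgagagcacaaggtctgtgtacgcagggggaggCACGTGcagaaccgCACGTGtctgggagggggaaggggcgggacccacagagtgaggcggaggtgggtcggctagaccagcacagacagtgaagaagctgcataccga

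The window of Per3 (chr4:151044616-151044915, minus strand) held 2 D-boxes, at -205 and -158.
Per3: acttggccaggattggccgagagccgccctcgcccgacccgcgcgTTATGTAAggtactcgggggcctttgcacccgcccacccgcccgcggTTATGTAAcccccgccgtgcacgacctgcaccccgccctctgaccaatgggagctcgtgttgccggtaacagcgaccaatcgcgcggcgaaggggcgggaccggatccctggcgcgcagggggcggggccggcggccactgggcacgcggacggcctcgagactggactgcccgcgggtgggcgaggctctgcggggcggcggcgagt

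The second of the windows of Arntl (chr7:113207261-113207560, plus strand) held the RORE consensus at 26 bases past the start.
Arntl: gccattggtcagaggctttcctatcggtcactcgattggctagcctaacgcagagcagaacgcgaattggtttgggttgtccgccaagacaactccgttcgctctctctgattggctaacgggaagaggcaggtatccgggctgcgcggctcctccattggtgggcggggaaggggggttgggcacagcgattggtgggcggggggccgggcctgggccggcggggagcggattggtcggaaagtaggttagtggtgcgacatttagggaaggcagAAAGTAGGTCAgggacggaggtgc

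Tef held 1 E-box in each of its windows and Nr1d1 the E-box variant. The windows of Dbp, Nr1d2 and Clock held none of these letters. A match describes the sequence alone, and binding was not measured.

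The libraries held 33937067 to 49217553 counts on genes in the ACSA-2 fraction and 36098295 to 53206974 in the CD11b fraction, and the members had between 52 counts (Ciart in A2A-2344) and 16277 counts (Nr1d1 in GFP-303). Levels are CPM, which are counts divided by the TMM-scaled total of the library and set to a common scale. Adora2a, the gene carried by the vector, had 23.0 to 25.1 CPM in ACSA-2 libraries of AAV-GFP animals and 656 to 945 CPM in those of AAV-A2A animals, and 3.96 to 8.07 against 16.3 to 43.2 CPM in the CD11b libraries. The 9 astrocyte markers summed to 23490 to 38360 CPM in the ACSA-2 libraries and to 270 to 490 CPM in the CD11b libraries. The 9 microglial markers summed to 260 to 479 CPM and to 7806 to 58370 CPM, respectively. The 3 CD11b libraries GFP-2328, GFP-2329 and A2A-2347 stood apart through transcripts of the choroid plexus (7 markers), which summed to 77220, 62790 and 31980 CPM, against 93.6, 69.4 and 10.9 CPM in GFP-2331, A2A-2343 and A2A-2344. The study counts the ACSA-2 samples of a group as separate animals. For the CD11b libraries the labels do not say whether they came from separate animals or pools, so their p-values measure only the spread between these libraries, which may be technical.

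**Figure D1:**
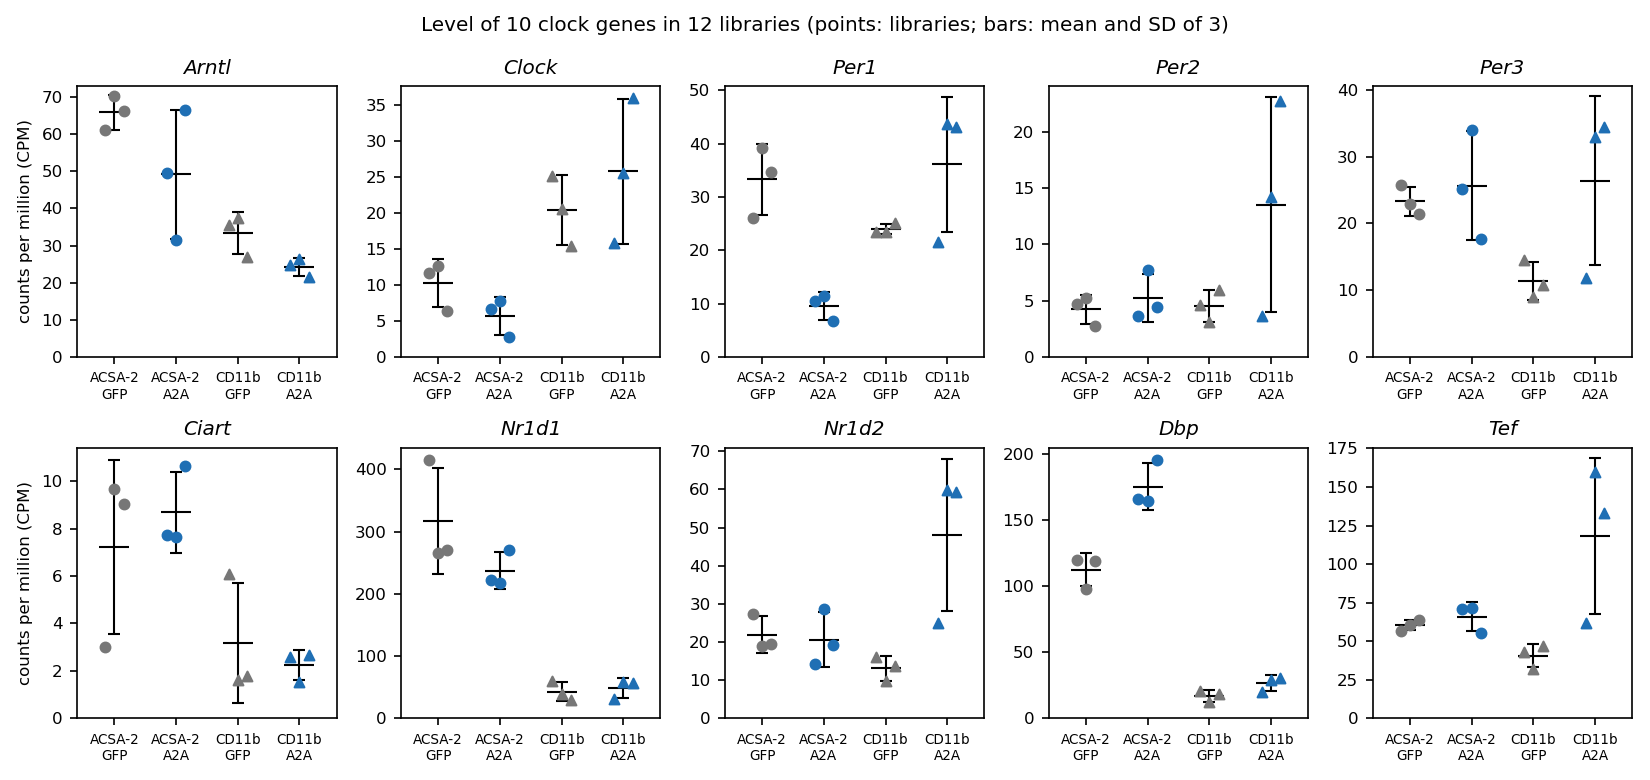
Level of each of the 10 clock genes in the 12 libraries, in CPM scaled over all libraries (linear axes that start at 0). Points are libraries, with AAV-GFP in gray and AAV-A2A in blue, circles for ACSA-2 and triangles for CD11b, and horizontal lines with bars give the mean and SD of 3. Per1 is lower in all ACSA-2 libraries of AAV-A2A animals, at 6.65 to 11.5 against 26.1 to 39.3 CPM, and in the CD11b libraries of AAV-A2A animals A2A-2343 lies below the other two for Per1, Per2, Per3, Nr1d2 and Tef.

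The first comparison asked how the clock genes differ in level between both fractions in AAV-GFP controls. Levels between genes were compared per kb of merged exon. The repressor Nr1d1 was the most abundant member in both fractions, with 103 ± 27.6 CPM per kb in ACSA-2 and 13.9 ± 4.94 CPM per kb in CD11b libraries (SD, n = 3). Dbp came next in ACSA-2 with 37.6 ± 4.23 CPM per kb, and neither gene overlapped its neighbour in the order. Arntl (8.76) and Tef (7.69) followed and overlapped each other. Per1 (5.93), Nr1d2 (4.06), Ciart (3.20) and Per3 (2.43) formed a chain of overlapping neighbours, and Clock (0.746) and Per2 (0.724 CPM per kb) were lowest and overlapped. In CD11b libraries Dbp (5.70), Tef (5.17), Arntl (4.44) and Per1 (4.26) formed a chain of overlapping neighbours below Nr1d1. A gap separated Per1 from Nr1d2 (2.43), Clock (1.48), Ciart (1.403), Per3 (1.18) and Per2 (0.773 CPM per kb), which overlapped from one to the next.

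**Figure D2:**
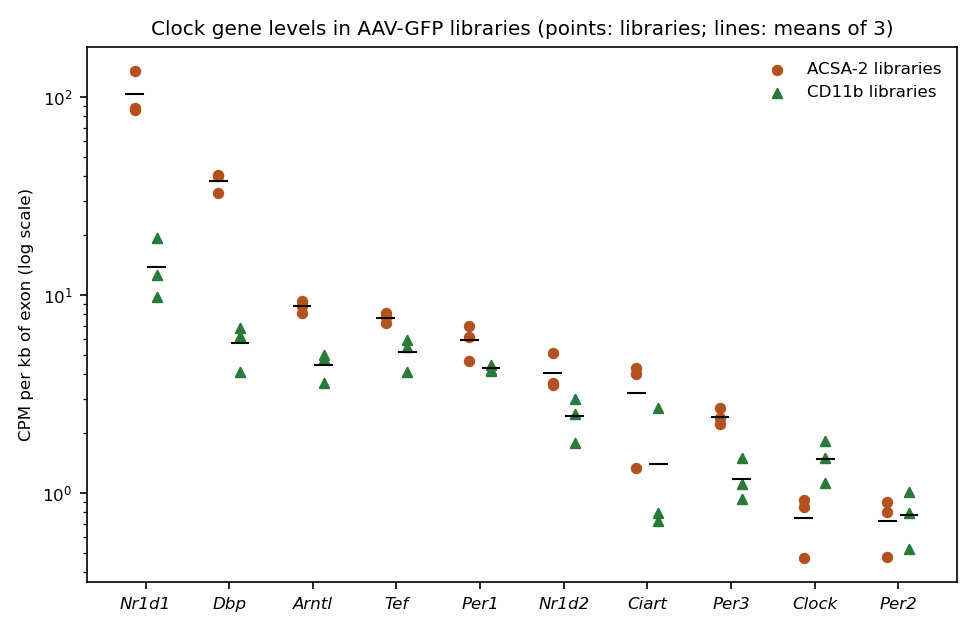
Level of the clock genes per kb of exon in AAV-GFP libraries, on a log axis, in the order of their ACSA-2 mean. Points are the 3 libraries of a fraction and lines their means, with ACSA-2 in orange circles and CD11b in green triangles. Nr1d1 at 103 and Dbp at 37.6 CPM per kb stand above the other members in ACSA-2 libraries.

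Of the 10 members, 4 were higher in ACSA-2 than in CD11b libraries of AAV-GFP animals and 0 were lower, where 12.7% of the 16980 tested genes were called higher and 13% lower. Called means a Benjamini-Hochberg adjusted p under 0.05 with an absolute log2 fold change (FC) over 0.32, the thresholds of the study. The median log2 FC was 0.86 for the members and -0.09 for all tested genes. In bulk samples, fewer cells of a type and less RNA per cell cannot be told apart, and fraction coincides with order of sorting and count table. ACSA-2 samples bear their library numbers and CD11b samples bear numbers of another kind, so the labels do not show whether the fractions share animals. The fit treated all libraries as independent, and animal and hour of death cannot be told apart from fraction either.

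Nr1d1 (ENSMUSG00000020889, chromosome 11 from 98767932 to 98775333, minus strand), the REV-ERB alpha repressor of Arntl, had 416, 266 and 271 CPM in the ACSA-2 libraries GFP-303, GFP-306 and GFP-307, on the scale of all 12 libraries. It had 59.6, 38.7 and 29.96 CPM in GFP-2328, GFP-2329 and GFP-2331. Every ACSA-2 library was above every CD11b library, and the log2 FC was 2.89 (SE 0.37, adjusted p = 0.00361), a 7.43-fold higher level. Of its exon bases 8.55% are shared with Thra on the opposite strand, and whether reads were counted by strand is not given in the sources used here.

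Dbp (ENSMUSG00000059824, chromosome 7 from 45705088 to 45710203, plus strand), a PAR bZIP activator of output genes, had 120, 98.0 and 119 CPM in these ACSA-2 libraries and 20.5, 12.2 and 18.6 CPM in the CD11b libraries. The groups lay far apart, with a log2 FC of 2.72 (SE 0.29, adjusted p = 0.00177) and a 6.60-fold higher level in ACSA-2. Its exons share 18% of their bases with Sphk2. Nr1d1 and Dbp kept the call in each of the 6 fits that left out 1 library.

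Arntl (ENSMUSG00000055116, chromosome 7 from 113207465 to 113314126, plus strand), the activator of the loop, had 61.0, 70.3 and 66.3 CPM in ACSA-2 and 35.6, 37.5 and 27.0 CPM in CD11b libraries. The groups did not overlap (log2 FC 0.98, SE 0.24, adjusted p = 0.0248), and the call was kept only without GFP-2331 among the 6 fits that left out a library. Per3 (ENSMUSG00000028957, chromosome 4 from 151003652 to 151044665, minus strand), a PER family member, had 25.7, 22.9 and 21.3 against 14.5, 8.90 and 10.7 CPM. Its log2 FC of 1.04 (SE 0.31, adjusted p = 0.049) lay at the threshold and lost the call in each of these 6 fits (adjusted p 0.0546 to 0.163).

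Without GFP-2328 and GFP-2329, which leaves a single CD11b library of AAV-GFP animals assumed to vary like the ACSA-2 ones, Nr1d1 and Dbp were the members still called. Of the 6 members that were not called in the main fit, Per1, Nr1d2 and Tef were above in all ACSA-2 libraries. Clock, the partner of ARNTL, was below in all of them. The log2 FC of Clock was -0.99 (SE 0.39, adjusted p = 0.101). In total 7 members lay higher in ACSA-2 without overlap (25.4% of all tested genes) and 1 lower (24.9%), and 50.3% of genes lay apart in either direction. An unadjusted p under 0.05 was reached by 6 members and by 40.1% of genes. Per2 (log2 FC -0.09, adjusted p = 0.909) and Ciart (1.19, adjusted p = 0.273) overlapped.

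The second comparison asked whether clock genes differ between AAV-A2A and AAV-GFP animals in the ACSA-2 fraction, and it shares the AAV-GFP libraries with the first. Per1 fell and was the 1 member called, where 3.36% of the 16451 tested genes were called, 3.19% lower and 0.176% higher. The median log2 FC was 0.05 for the members and 0.02 for all tested genes. The groups did not overlap for 1 member in each direction, Per1 lower (10.9% of tested genes) and Dbp higher (8.61%), 19.6% in all.

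Per1 (ENSMUSG00000020893, chromosome 11 from 69095217 to 69109960, plus strand) encodes a repressor of CLOCK and ARNTL and responds fast to light, glucocorticoid and cAMP signals in many cells. It had 25.6, 38.9 and 34.1 CPM in GFP-303, GFP-306 and GFP-307, against 10.5, 11.5 and 6.78 CPM in A2A-309, A2A-310 and A2A-313. The highest AAV-A2A library thus stayed well below the lowest control, and the level fell by 1.78 on the log2 scale (SE 0.30, adjusted p = 0.011), a 3.43-fold lower level. The 95% confidence interval of the log2 FC was -2.46 to -1.10. The call held with DESeq2, limma-voom and every filter and scaling tried, and was lost without GFP-306, the control with the highest level (log2 FC -1.64, adjusted p = 0.0653).

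The endothelial marker list was also lower in sum in the AAV-A2A libraries. Its 7 markers summed to 401 to 464 CPM in AAV-GFP and 214 to 381 CPM in AAV-A2A libraries, with no marker at 0. Of the 7 markers, 1 was called, Flt1 (a VEGF receptor), at 157, 196 and 190 CPM in AAV-GFP and 47.0, 77.6 and 46.9 CPM in AAV-A2A libraries, with a log2 FC of -1.66 (adjusted p = 0.00523). Cdh5 (log2 FC -2.62), Tek (-1.25), Vwf (-0.94), Kdr (-0.81) and Pecam1 (-0.50) were lower without being called. Cldn5, a tight junction gene with 154 to 184 CPM in AAV-GFP and 134 to 247 CPM in AAV-A2A libraries, was the only marker that was not lower (log2 FC 0.05, adjusted p = 0.971). The median log2 FC of the 7 was -0.94, and 3 of them were lower without overlap, where 10.9% of tested genes were. The part of endothelial transcripts in the result for Per1 was not tested.

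Dbp had higher values in the AAV-A2A libraries. It had 118, 97.0 and 117 CPM in the controls GFP-303, GFP-306 and GFP-307. In A2A-309, A2A-310 and A2A-313 it had 165, 165 and 199.8 CPM, so that all AAV-A2A libraries were above all controls. Its log2 FC of 0.67 (SE 0.17, 95% confidence interval 0.28 to 1.06, adjusted p = 0.0785) did not pass the threshold. By DESeq2, which called 4.53% of the 27866 genes it was given, Dbp passed (adjusted p = 0.00641), as it did by edgeR among genes that reached 10 counts in each library (adjusted p = 0.0481). Over the 13 alternatives its adjusted p ranged from 0.00641 to 0.406.

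The remaining 8 members overlapped between the vectors in ACSA-2 libraries, with adjusted p from 0.515 to 0.977. Arntl had 59.8, 69.7 and 65.1 CPM in AAV-GFP and 49.1, 31.5 and 67.8 CPM in AAV-A2A libraries (log2 FC -0.39, SE 0.27), with A2A-310 the lowest of all 6. Clock (ENSMUSG00000029238, chromosome 5 from 76209868 to 76304792, minus strand) had 11.5, 12.5 and 6.32 against 6.52, 7.76 and 2.81 CPM, and its log2 FC of -0.82 (SE 0.47) carried an interval from -1.88 to 0.23.

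Among the repressors, Per2 (ENSMUSG00000055866, chromosome 1 from 91415982 to 91459324, minus strand) had a log2 FC of 0.33 (SE 0.49) and Per3 one of 0.16 (SE 0.28), and both were highest in A2A-310 (7.69 and 34.1 CPM). Ciart (ENSMUSG00000038550, chromosome 3 from 95878503 to 95882251, minus strand), which encodes the CHRONO repressor of CLOCK and ARNTL, had 2.95, 9.58 and 8.86 CPM in AAV-GFP and 7.65, 7.66 and 10.9 CPM in AAV-A2A libraries, with GFP-303 far below the rest (log2 FC 0.29, SE 0.47).

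Nr1d1 had 407, 263 and 266 CPM in AAV-GFP and 221, 218 and 276 CPM in AAV-A2A libraries, with GFP-303 above all others and a log2 FC of -0.39 (SE 0.21, interval -0.87 to 0.09). Nr1d2 (ENSMUSG00000021775, chromosome 14 from 18204054 to 18239127, minus strand), the REV-ERB beta repressor, had a log2 FC of -0.06 (SE 0.31, interval -0.76 to 0.65). Tef (ENSMUSG00000022389, chromosome 15 from 81802421 to 81826863, plus strand), the PAR bZIP relative of Dbp, went from 59.6 ± 3.55 to 66.1 ± 8.53 CPM (SD, n = 3), a log2 FC of 0.15 (SE 0.19, interval -0.27 to 0.57). Apart from that of Tef, the intervals of these 8 genes include a change of 0.67, the size seen for Dbp, in at least 1 direction.

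**Figure D3:**
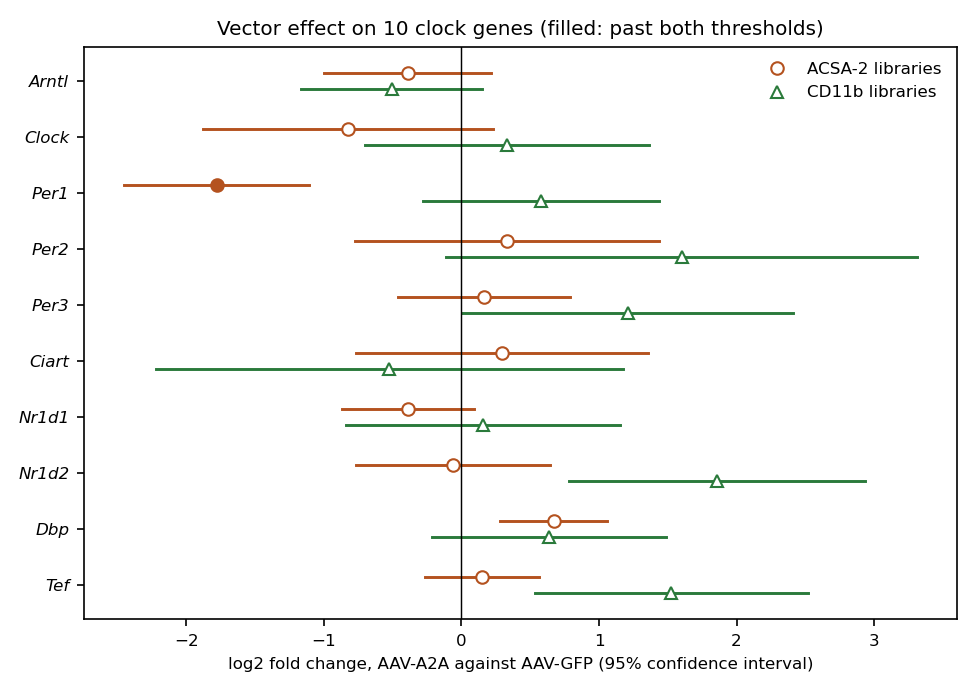
Log2 FC of AAV-A2A against AAV-GFP for the 10 clock genes, with ACSA-2 libraries as orange circles, CD11b libraries as green triangles and lines as 95% confidence intervals. Per1 in ACSA-2 libraries, at -1.78, is the only filled point, which marks a gene past both thresholds, and the intervals of Nr1d2, Tef and Per3 in CD11b and of Dbp in ACSA-2 libraries lie above 0 without an adjusted p under 0.05.

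The third comparison put the same question to the CD11b fraction, where 0 of the 10 members and 0 of the 16949 tested genes were called by edgeR (0%). Unadjusted, 3 members and 2704 genes (16%) had a p under 0.05. DESeq2 called 1 member, Nr1d2, and 1.5% of the 30359 genes it was given, and limma-voom called 0 members. The median log2 FC was 0.61 for the members and -0.05 for all tested genes. Both groups lay apart for 2 members higher and 1 lower, against 23.4% of all tested genes in either direction.

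Nr1d2 had 17.0, 9.95 and 13.2 CPM in GFP-2328, GFP-2329 and GFP-2331 and 24.0, 57.2 and 64.5 CPM in A2A-2343, A2A-2344 and A2A-2347. All AAV-A2A libraries were above all controls, with A2A-2343 well below the other two. The log2 FC was 1.86 (SE 0.45, interval 0.78 to 2.93), with an adjusted p of 0.28 by edgeR and 0.0355 by DESeq2.

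Tef had 45.3, 33.1 and 45.3 CPM in the controls and 59.2, 153 and 145 CPM in the AAV-A2A libraries. The groups again did not overlap and A2A-2343 was again the lowest of its group (log2 FC 1.53, SE 0.42, adjusted p = 0.28, 0.0696 to 0.742 over the alternatives).

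The PER genes had the same 2 libraries on top. Per2 had 4.85, 3.15 and 5.73 CPM in the controls and 3.46, 13.6 and 24.7 CPM in A2A-2343, A2A-2344 and A2A-2347 (log2 FC 1.60, SE 0.72, adjusted p = 0.334). Per3 had 15.2, 9.13 and 10.4 against 11.3, 31.5 and 37.4 CPM (log2 FC 1.21, SE 0.51, adjusted p = 0.313).

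Per1 had 24.7, 24.0 and 24.4 CPM in the controls, a range of under 1 CPM, and 20.6, 41.8 and 46.8 CPM in the AAV-A2A libraries (log2 FC 0.58, SE 0.36, adjusted p = 0.455). For these 3 genes A2A-2343 lay within or below the range of the controls, so the groups overlapped. Dbp followed the same order with a smaller span, at 21.5, 12.5 and 18.0 against 19.4, 28.0 and 33.4 CPM (log2 FC 0.64, SE 0.36, adjusted p = 0.414).

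Arntl was the member with lower values in all AAV-A2A libraries, with 37.4, 38.5 and 26.3 CPM in the controls and 23.6, 25.1 and 23.3 CPM in AAV-A2A animals. The log2 FC was -0.51 (SE 0.28, adjusted p = 0.403), with the AAV-A2A libraries within 2 CPM of each other. Clock (0.33, SE 0.43), Nr1d1 (0.16, SE 0.42) and Ciart (-0.52, SE 0.71) overlapped, with adjusted p of 0.727, 0.873 and 0.737.

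Cell markers also differed among these libraries. The 7 choroid plexus markers were at 10.9 CPM in A2A-2344, with Aqp1 at 0, and at 31980 CPM in A2A-2347, and both libraries had the high levels of Per2, Per3, Nr1d2 and Tef. The 5 erythrocyte markers summed to 988 to 6137 CPM in AAV-GFP and 61.6 to 242 CPM in AAV-A2A libraries, and the 9 neuronal markers to 28.2 to 197 and 12.3 to 18.4 CPM, in both cases without overlap. The 6 ependymal markers, at 159 to 424 and 35.2 to 156 CPM, did not overlap either. In each group Gad1 was at 0 in 1 library, and Syt1 was at 0 in A2A-2344. The 9 microglial markers summed to 7806, 15690 and 53950 CPM in the controls and to 58370, 47420 and 22580 CPM in A2A-2343, A2A-2344 and A2A-2347.

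Without the 3 libraries rich in choroid plexus transcripts, GFP-2331 stood alone against A2A-2343 and A2A-2344. This was a joint fit that held all ACSA-2 libraries, so the spread was mostly not that of CD11b libraries. The log2 FC was then 1.65 for Nr1d2, 1.25 for Tef, 1.07 for Per3, 0.60 for Per2 and -0.08 for Arntl. The parts of choroid plexus, erythrocyte, neuronal and ependymal transcripts in these values were not tested.

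**Figure D4:**
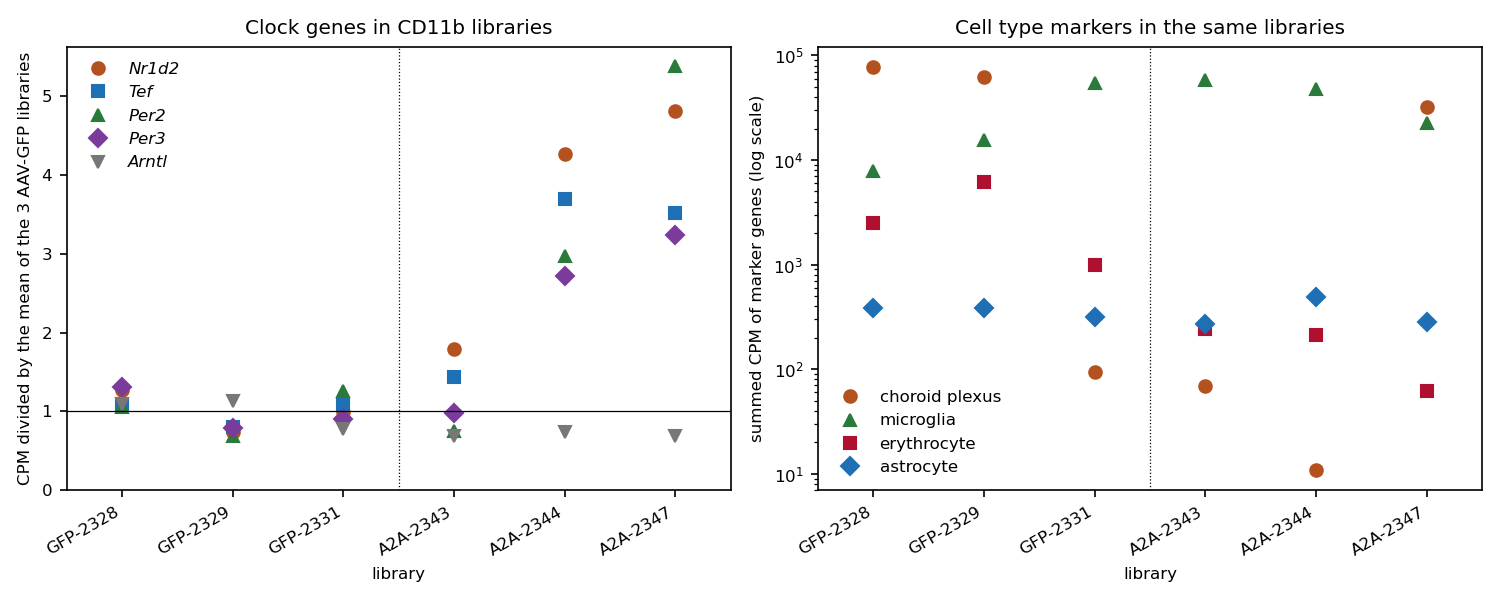
Left, CPM of 5 clock genes in each CD11b library divided by the mean of the 3 AAV-GFP libraries (linear axis from 0, horizontal line at 1). Right, summed CPM of 4 marker lists in the same libraries (log axis), where A2A-2344 at 10.9 and A2A-2347 at 31980 CPM of choroid plexus markers both sit high on the left for Nr1d2, Tef, Per2 and Per3. The part of choroid plexus transcripts in the values on the left was not tested.

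The fourth comparison tested the difference itself between the vector effects of both fractions, in 1 fit of all 12 libraries. It shares its samples with the comparisons above. None of the 10 members was called by edgeR, against 0.403% of 18602 genes (0.0376% higher and 0.366% lower), while 3 members and 19.6% of genes had an unadjusted p under 0.05, and DESeq2 called 2 members, Per1 and Nr1d2, and 6.66% of the 25442 genes it was given.

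Per1 had a log2 difference of -2.40 (effect in ACSA-2 minus effect in CD11b, SE 0.47), from an effect of -1.78 in ACSA-2 and 0.58 in CD11b libraries, and lay just outside the threshold (adjusted p = 0.0531). It passed with DESeq2 (adjusted p = 0.000328), among genes that reached 10 counts in each library (adjusted p = 0.036), without GFP-2331 (adjusted p = 0.0268) and without A2A-2343 (adjusted p = 0.0114). Nr1d2 (-1.96, SE 0.56, adjusted p = 0.105) and Tef (-1.42, SE 0.45, adjusted p = 0.128) followed, and both passed without A2A-2343 (adjusted p = 0.0275 and 0.0197).

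Dbp showed a log2 difference of -0.0091 (SE 0.36, interval -0.79 to 0.78), with effects of 0.67 and 0.64 in the 2 fractions. Arntl likewise had a difference of 0.046 (SE 0.39, interval -0.81 to 0.90). For both genes this interval includes differences larger than either effect, so equal effects are not shown.

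In AAV-A2A animals the fraction difference had the opposite sign to that of the controls for Per1, Nr1d2 and Tef, none of which was called in the controls. Nr1d2 (adjusted p = 0.0591 by edgeR) and Tef (0.124) were not called in AAV-A2A animals either. The test of the difference itself, given above, called no member by edgeR. Among the 6 AAV-A2A libraries 6 members were called between ACSA-2 and CD11b, 4 higher in ACSA-2 and 2 lower. Of 16658 tested genes 46.6% were called, 21.4% higher and 25.2% lower. Per1, with 0.48 in AAV-GFP libraries, was at -1.86 (adjusted p = 0.00779), so that ACSA-2 libraries then had the lower level. Clock was at -2.13 (adjusted p = 0.0116), and Nr1d1 at 2.35, Dbp at 2.77, Arntl at 1.09 and Ciart at 2.00 were higher in ACSA-2 (adjusted p 0.00147, 0.000459, 0.0354 and 0.0156). Per3, called in the controls, was at 0.014 (adjusted p = 0.983).

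Levels relative to Arntl within a library do not depend on the scaling between libraries. This ratio was chosen after the values were seen and has no test. The Dbp count was 1.97, 1.39 and 1.80 times that of Arntl in the AAV-GFP libraries GFP-303, GFP-306 and GFP-307, against 3.35, 5.23 and 2.95 times in A2A-309, A2A-310 and A2A-313. In the CD11b libraries the same ratio was 0.575, 0.324 and 0.687 in AAV-GFP and 0.821, 1.12 and 1.43 in AAV-A2A animals. The ratio of Dbp was thus higher in all AAV-A2A libraries of both fractions, as were those of 17.9% of genes in ACSA-2 and 21.1% in CD11b libraries, where 4.24% were lower and no member was. The ratio to Arntl was also higher in all AAV-A2A libraries for Ciart in ACSA-2 (0.156 to 0.243 against 0.0493 to 0.138) and for Per3, Nr1d2 and Tef in CD11b libraries. These ratios share the Arntl count, which was itself lower in CPM in all CD11b libraries of AAV-A2A animals. Per1 to Arntl was lower in all ACSA-2 libraries of AAV-A2A animals, at 0.213, 0.364 and 0.100 against 0.428, 0.558 and 0.524 in controls, as for 4.4% of genes.

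A list of 21 other clock genes (cryptochromes, ROR receptors, DEC repressors, kinases and F-box proteins of the loop) was set beside the members. In the ACSA-2 fraction 3 of the 21 were called lower in AAV-A2A animals (3.19% of all tested genes) and 0 higher (0.176%). In all AAV-A2A libraries 7 of 21 were lower, where 10.9% of all tested genes were. The median log2 FC was -0.32, against 0.02 for all genes.

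Bhlhe40 (DEC1), which competes with CLOCK and ARNTL at E-boxes, had 484, 535 and 559 CPM in AAV-GFP and 243, 170 and 300 CPM in AAV-A2A libraries, and fell by 1.15 on the log2 scale (SE 0.22, adjusted p = 0.0202). Its relative Bhlhe41 (DEC2) had 44.3, 36.0 and 53.9 against 20.7, 13.3 and 16.4 CPM and fell by 1.41 (SE 0.26, adjusted p = 0.0178). Cry2, a partner of the PER proteins in repression, had 151, 130 and 137 against 89.3, 66.7 and 78.8 CPM and fell by 0.83 (SE 0.18, adjusted p = 0.0347).

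None of the 3 genes overlapped between the vectors. With 1 library left out, Bhlhe40 kept its call only without A2A-313, Bhlhe41 only without GFP-306 or A2A-309, and Cry2 in none of the 6 fits, and none of the 3 passed in the fit of all 12 libraries (adjusted p 0.379 to 0.541). In the CD11b fraction 0 of the 21 were called by edgeR, with 2 at an unadjusted p under 0.05.

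**Figure D5:**
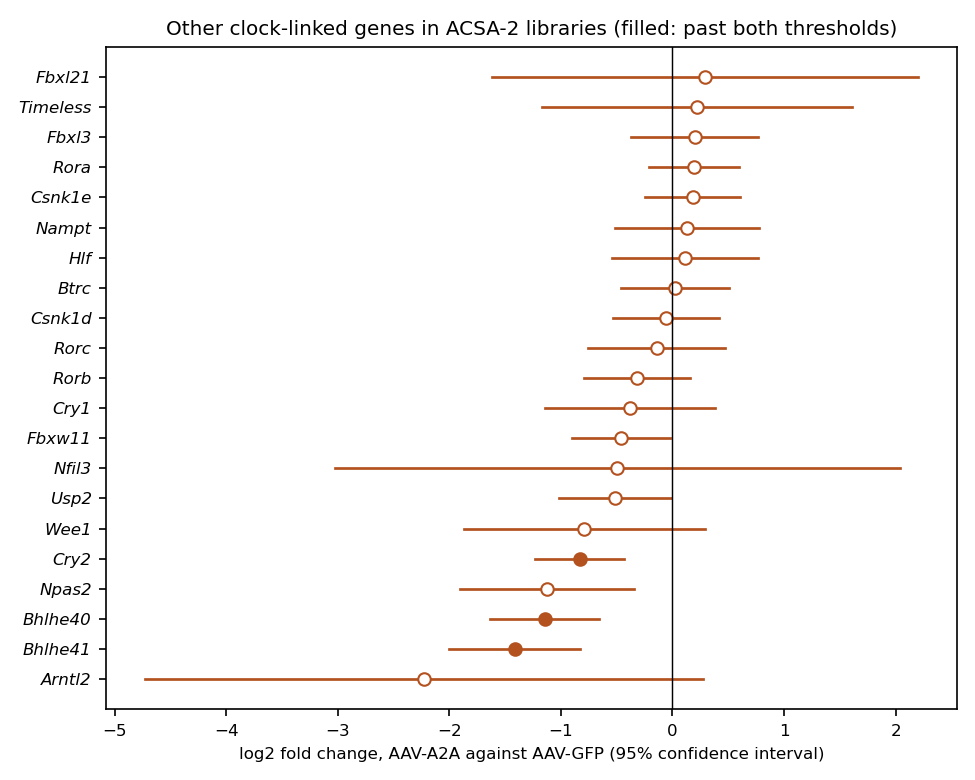
Log2 FC of AAV-A2A against AAV-GFP in ACSA-2 libraries for the 21 other clock genes, sorted by size, with lines as 95% confidence intervals. The 3 filled points, Bhlhe41 at -1.41, Bhlhe40 at -1.15 and Cry2 at -0.83, are past both thresholds.

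Between the fractions of AAV-GFP animals, 4 of these 21 genes were higher in ACSA-2 (12.7% of all tested genes), namely Rorb (log2 FC 5.61, adjusted p = 0.00189), Bhlhe40 (2.75, 0.0248), Cry2 (2.68, 0.00235) and the PAR bZIP gene Hlf (2.19, 0.00739). The 4 that were lower (13% of all tested genes) were Nfil3 (-2.48, 0.00639), which represses through the D-box, Csnk1e (-2.13, 0.0486), Csnk1d (-1.51, 0.0256) and Nampt (-1.03, 0.0491). The casein kinases encoded by Csnk1d and Csnk1e phosphorylate PER proteins. With 1 library left out, Bhlhe40, Csnk1d and Csnk1e kept the call only without GFP-2328 or GFP-2331, and Nampt only without GFP-2331. Nfil3 lost it in 0 of these 6 fits, but did so in the joint fit without the libraries rich in choroid plexus transcripts. It also lost it among AAV-A2A libraries (adjusted p = 0.207), as did Cry2 (adjusted p = 0.154).

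Per1 also responds to cAMP and to glucocorticoids, so 2 lists of genes of such responses were read beside it. Of 16 tested cAMP and immediate early genes, 1 was called lower in ACSA-2 libraries (3.19% of all tested genes), Egr1, at 275, 168 and 196 CPM in AAV-GFP and 104, 47.3 and 58.8 CPM in AAV-A2A animals (log2 FC -1.61, SE 0.31, adjusted p = 0.0213). It kept the call only without A2A-309 among the 6 fits that left out a library. Of 10 glucocorticoid-responsive genes, 1 was called lower, Errfi1, a feedback inhibitor of the EGF receptor, at 194, 287 and 308 against 72.0, 27.3 and 36.8 CPM (log2 FC -2.54, SE 0.36, adjusted p = 0.00505). The median log2 FC was -0.04 for the first list and -0.41 for the second. Without overlap, 3 genes of the first list and 2 of the second were lower (10.9% of all tested genes). In the same sense 0 genes of either list were higher (8.61%). In the CD11b fraction edgeR called 0 genes of either list, with 2 and 1 at an unadjusted p under 0.05.

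In AAV-GFP animals the immediate early genes were often lower in ACSA-2 than in CD11b libraries, with 9 of the 17 genes of the list called lower (13% of all tested genes) and 1 higher (12.7%), Pde4b (log2 FC 1.503, adjusted p = 0.0127). The 9 were Fos (-4.46, adjusted p = 0.00107), Fosb (-5.60, 0.00234), Junb (-5.01, 0.000611), Jun (-4.55, 0.00138), Egr1 (-3.999, 0.00133), Egr2 (-6.49, 0.037), Nr4a1 (-2.13, 0.0194), Dusp1 (-2.79, 0.00366) and Ier2 (-4.29, 0.000974). Of the 10 genes of the glucocorticoid list 3 were called lower and 0 higher, namely Sgk1 (-5.60, 0.000579), Fkbp5 (-4.02, 0.0286) and Nfkbia (-2.12, 0.00763). The median log2 FC of that list was 0.32. Without overlap, 4 of its genes lay higher in ACSA-2 (25.4% of all tested genes) and 3 lower (24.9%). With 1 library left out, Fkbp5 and Nr4a1 kept the call only without GFP-2328 or GFP-2331 and Egr2 only without GFP-306 or GFP-2331, while Pde4b lost it without GFP-303 or GFP-307. The log2 FC of Fkbp5 ranged from -4.66 to -2.87 in these fits, and that of Egr2 from -14.2 to -5.89. Egr2 had 0 counts in 2 of the 3 ACSA-2 libraries, so the size of its difference is uncertain. Per1 had a log2 FC of 0.48 (adjusted p = 0.22) between the same libraries.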

How the data were processed

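The authors trimmed the reads with cutadapt 1.10, aligned them to mm10 with STAR 2.5.3, and deposited raw counts per Ensembl gene from HTSeq 0.6.1p1, 1 table for each fraction, without normalization. Reads on overlapping genes were left out of these counts, a strand setting is not given in the sources used here, and reads carry no molecular identifiers, so that intervals cover the spread between libraries and not amplification. Vector and fraction came from the labels. Counts of all genes went into edgeR 4.0.16 under R 4.3.3 (TMM scaling, filterByExpr, robust quasi-likelihood fit), with Benjamini-Hochberg adjustment. A gene was called at an adjusted p under 0.05 with an absolute log2 FC over 0.32. No pair of replicates agreed within sampling noise (chi-square per degree of freedom 51.6 to 1200). The biological coefficient of variation was 0.52 for ACSA-2, 0.707 for CD11b, 0.611 for AAV-GFP and 0.676 for all libraries.

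CPM were scaled within a fraction, and over all 12 libraries between fractions. Positions and exon lengths are from GENCODE M21 (GRCm38). Alternatives were DESeq2 1.42.0, voom with limma 3.58.1, DESeq2 size factors, stricter and no filters, and 1 fit of all libraries. The main fit without the fold change threshold and fits with each library left out were also used. The fits were run on simulated counts with planted changes and the spread that edgeR had estimated from these data. Differences in cell mixture between libraries were not simulated, so the run does not test for their effect. Members and lists were chosen with earlier results of these data known. All members are named, and of the lists of other clock, cAMP and immediate early, and glucocorticoid-responsive genes each one called. Fbxw11, the endothelial markers, Gad1, Syt1 and Aqp1 were chosen for naming after their values were seen. Plots used matplotlib 3.10.9 in Python 3.11.15.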

Additional observations from a re-analysis of the deposited data

Results flagged for a closer look

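Fbxw11, which encodes an F-box protein that marks PER proteins for degradation, had opposite differences in both fractions, with no overlap between the vectors. It was lower in all ACSA-2 libraries of AAV-A2A animals (50.9, 41.2 and 56.2 against 65.0, 64.6 and 74.4 CPM, log2 FC -0.46) and higher in all CD11b libraries (114, 202 and 172 against 66.6, 62.3 and 77.9 CPM, log2 FC 1.24). Neither difference was called by edgeR (adjusted p = 0.354 in ACSA-2 and 0.28 in CD11b libraries). The gene was flagged because its groups lay apart in opposite directions. Of all tested genes, 10.9% lay lower without overlap in ACSA-2 and 12.6% higher in CD11b libraries. The difference between both effects was -1.75 on the log2 scale (SE 0.36, adjusted p = 0.0566 by edgeR). It did not pass the threshold over all genes.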

How the results depend on the processing

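The number of called members was 1 in ACSA-2 libraries and became 2 with DESeq2 or at least 10 counts in every library, and 0 to 1 with each library left out. In CD11b libraries it was 0, 1 with DESeq2 and 0 to 0 with a library left out. Between fractions it was 4, with 2 to 3 on leaving out a library and 2 without the libraries rich in choroid plexus transcripts, an alternative chosen after seeing the data. For the difference of vector effects it was 0, 2 with DESeq2, 1 with at least 10 counts in every library, and 0 to 3 with a library left out. Of 610 member values under alternatives, 547 kept direction and side of the threshold and 34 changed direction. They include the main fits read without the fold change threshold, where the direction could not change. Most of the values belong to members not called in the main fit, for which staying uncalled counts as kept. Among AAV-A2A libraries the fraction difference turned to -1.86 for Per1, -1.16 for Nr1d2 and -0.79 for Tef. Ciart in CD11b libraries turned to 0.20 without the choroid-rich libraries. The difference of vector effects, near 0, turned for Dbp to 0.061 with DESeq2, 0.076 with its size factors, 0.063 with at least 10 counts and 0.22 without the choroid-rich libraries, and for Arntl to -0.0023 with limma-voom and -0.34 without them. With 1 library left out, the vector effect in ACSA-2 libraries ranged from -0.049 to 0.54 for Per2, -0.093 to 0.36 for Per3, -0.36 to 0.15 for Nr1d2 and -0.096 to 0.56 for Ciart. In CD11b libraries it ranged from -0.069 to 0.51 for Nr1d1, -0.059 to 0.60 for Clock and -0.84 to 0.42 for Ciart, the fraction difference from -0.32 to 0.14 for Per2, and the difference of effects from -0.18 to 0.18 for Dbp, -0.24 to 0.28 for Arntl and -0.14 to 1.07 for Ciart. The cause was not tested. Over all genes, called genes went from 553 (5.24% higher) to 156 in the joint fit and 1263 with DESeq2 (21.5% higher) in ACSA-2 libraries, with 272 to 448 on leaving out a library. They went from 0 to 455 with DESeq2 in CD11b libraries, from 4377 to 6792 with DESeq2 and 1927 without GFP-306 between fractions, and from 75 (9.33% higher) to 1695 with DESeq2 (42.2% higher), 10 with its size factors and 345 with at least 10 counts for the difference of effects, where leaving out a library gave 0 to 1286. No paired analysis was made. Each animal received a single vector, so the vector groups hold different animals. Between fractions the samples are numbered in different ways, so the labels do not show whether animals were shared. The fits treated all libraries as independent. Depth limits Ciart most, with 52 counts in A2A-2344.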
